A study of Scomber scombrus with 32 samples.

Results

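The genes described here are 100 that had their highest level in one culture state of the mackerel muscle cell line Mack1, the state labelled lipid loading, both before and after immortalization. They were chosen from 24189 counted genes by their group means on the deposited normalized scale, in which each library's counts are divided by 1 size factor. A gene needed a mean of at least 100 in lipid loading at both stages, which 10539 genes had. These were ranked by the lowest of 6 log2 ratios of lipid loading over serum starvation, serum reduction and proliferation at the same stage, with 1 added to each mean, and the first 100 were kept after 2 genes were set aside. The difference between lipid loading and the other states is therefore how the genes were found, and it is given below as a description only.

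The study sequenced RNA from 2 lines grown from mackerel muscle, labelled as muscle stem cells (1 Mack2 library says muscle satellite cell). Mack1 gave lipid loading, serum starvation, serum reduction and proliferation groups of 3 libraries, each at p77, labelled as after immortalization, and at p27, labelled as before it. Mack2 gave 4 proliferating libraries at p180, after immortalization, and 4 at p2, before it. For lipid loading, confluent cultures were fed growth medium with 20% serum and 1 ng/mL FGF2, to which 10 µg/mL insulin, 0.5 mM IBMX, 0.25 µM dexamethasone and 10 µL/mL of a lipid mixture had been added. In starvation, confluent cultures were no longer fed, in reduction they were fed medium with 2.5% serum, and in proliferation they were kept in growth medium alone. Lipid loading thus differed from starvation and reduction in serum and FGF2 as well as in the 4 additions, and from proliferation in confluence, so the parts played by serum, FGF2, confluence, insulin, IBMX, dexamethasone and lipid cannot be told apart. Each line is a single line, so passage and immortalization cannot be told apart either. The labels call the libraries experimental replicates without saying that they came from separate cultures, and the p-values below measure only the spread between them.

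As background, dexamethasone is a synthetic glucocorticoid that drives its receptor onto target genes such as fkbp5, klf9 and metallothionein genes. IBMX blocks phosphodiesterases, so cyclic AMP and the kinase it activates rise, and genes such as sik1 follow. Insulin acts through the TOR kinase on protein and lipid synthesis. Dexamethasone, IBMX and insulin together are the standard way to turn mammalian precursors into fat cells. With fatty acids added, fish muscle lines can take up lipid droplets.

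Among the 100 genes, 77 have a symbol in the RefSeq gene table and 23 a locus number alone, and all 100 are annotated as protein coding. In 97 of them all 6 lipid loading libraries lay above all 18 other Mack1 libraries, a pattern that 5.67% of the 15683 genes tested had. The exceptions were lum, col7a1 and LOC134002367. All 100 were higher in each of the 6 contrasts by the test used below, against 6.38% of genes. Both this count and the 97 follow from the rule. The ranking value ran from 7.60 for si:ch211-39i22.1, through a median of 2.39, to 1.74 for tm7sf2. The last inside were rhobtb4 at 1.76 and ppp1r3c2a at 1.75, and the first outside were sfxn1 at 1.73, LOC133979976 at 1.72 and sncgb at 1.71.

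**Figure D1:**
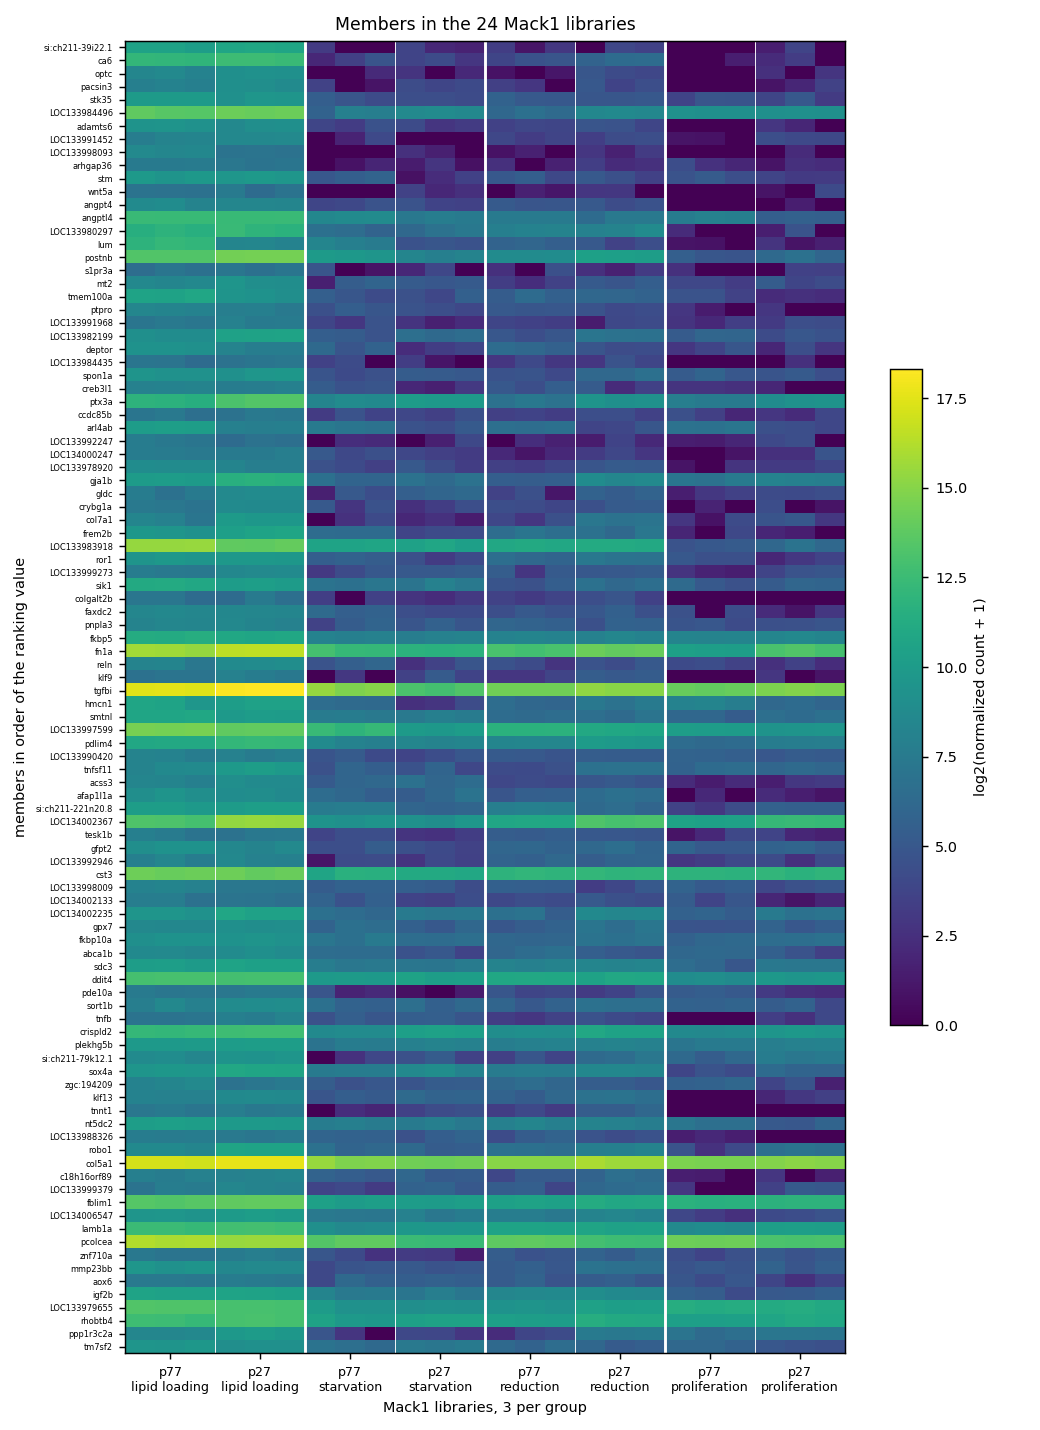
Heatmap of the 100 genes (rows, in order of the ranking value) in the 24 Mack1 libraries (columns, 3 per group), coloured by log2(normalized count + 1). The 6 lipid loading columns on the left are the brightest of each row except for lum, col7a1 and LOC134002367, where 1 or more of them overlap other columns, and many rows near the top are close to 0 in proliferation on the right.

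The state closest to lipid loading was most often serum reduction. It set the lowest ratio for 56 genes, against 29 for starvation and 15 for proliferation, and the lowest ratio came from p77 for 52 genes and from p27 for 48. The median log2 ratio of lipid loading over starvation, reduction and proliferation was 3.25, 3.40 and 4.57 at p77 and 3.95, 2.95 and 4.44 at p27. Proliferating cultures had a mean under 10 for 37 genes at p77, for 37 at p27 and for 28 at both stages.

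The libraries held 16.9 to 32.01 M counts. Differentiated muscle markers (9 genes, summed) were at 441523 to 526360 in p77 and 136913 to 165646 in p27 lipid loading libraries. They were at 511796 to 612318 in p77 and 418100 to 455145 in p27 starvation, at 833596 to 870381 and 465372 to 640283 in reduction, and at 404 to 644 and 3661 to 5333 in proliferation, so lipid loading lay below reduction at both stages, below starvation at p27 and above proliferation. The 5 fat cell markers summed to 119 to 122 in p77 and 81.2 to 92.5 in p27 lipid loading libraries. They summed to 114 to 166 and 4.83 to 19.2 in starvation, to 73.2 to 151 and 53.4 to 76.7 in reduction and to 247 to 341 and 24.2 to 58.6 in proliferation, so the sum in lipid loading was highest at p27 and not at p77. At p27 it rests mainly on cebpa, with means of 52.3 in lipid loading, 33.2 in reduction, 1.21 in starvation and 0 in proliferation. pparg and fabp4a were lower in p27 lipid loading than in p27 proliferation (17.2 against 21.9 and 13.0 against 22.7). cidec averaged 6.05 in p27 lipid loading, its highest state, and fabp4b was at 0 in all Mack1 libraries. Fibroblast markers (7 genes, among them the member lum) summed to 480424 to 543067 in p77 and 640471 to 660590 in p27 lipid loading libraries, to 483893 to 504367 and 488515 to 572275 in reduction, to 231086 to 325957 and 120564 to 134369 in starvation, and to 165158 to 174184 and 136345 to 148056 in proliferation. Their part in the levels of the matrix genes below was not tested. In bulk RNA, fewer cells of a type and less RNA per cell cannot be told apart.

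The roles under which the genes are grouped below were assigned from their symbols after their values had been seen, and cover 68 of the 100. Values without a unit are normalized counts, which are not divided by gene length, so levels are compared between libraries and not between genes. In the gene ranges that follow, elsewhere and the other libraries or states mean the 18 Mack1 libraries outside lipid loading. Proliferating Mack2 is left out of these ranges, and some of the genes were higher there. The libraries do not keep strand, and no source used here states how reads shared by duplicated fish genes were counted.

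The glucocorticoid, cyclic AMP and TOR group holds 8 genes. The hormone target fkbp5, a co-chaperone that damps the glucocorticoid receptor in mammals, was at 2415, 2357 and 2683 in p77 and 1895, 1729 and 1956 in p27 lipid loading libraries, against 217 to 369 in the other 18 (median 287). Its means in starvation, reduction and proliferation were 263.5, 290 and 304 at p77 and 258, 296 and 334 at p27. Neither reduction group passed the test against proliferation (log2 fold change -0.09 ± 0.12 SE, adjusted p = 0.535 at p77, and -0.22 ± 0.11, adjusted p = 0.0979 at p27). The second passes without p27 reduction replicate 2 (adjusted p = 0.0207). klf9, a transcription factor induced by glucocorticoids in mammals, was at 112, 131 and 130 in p77 and 266, 203 and 159 in p27 lipid loading, against 0 to 42.0 elsewhere, with no count in any p77 proliferating library. The metallothionein mt2 was at 318 to 749 in lipid loading (median 441), against 2.08 to 59.0 in the other libraries (median 22.8).

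Some members of this group are linked to cyclic AMP. sik1, a kinase induced by cyclic AMP that restrains the CREB coactivators, was at 2258, 2299 and 1989 in p77 and 1138, 1244 and 1050.0 in p27 lipid loading, against 22.0 to 261 elsewhere. The phosphodiesterase pde10a, which breaks down cyclic nucleotides, was at 176, 142 and 149 in p77 and 149, 175 and 177 in p27 lipid loading. In p77 it was lower in starvation, at 27, 2.56 and 3.63, than in proliferation, at 36.5, 43.6 and 33.4 (-1.86 ± 0.55, adjusted p = 0.00451, and 0.0822 when these 2 groups are fitted alone). arhgap36, known in mammals as an inhibitor of the cyclic AMP kinase, was at 126 to 192 in lipid loading, against 0 to 18.7 in the other libraries.

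Both TOR inhibitors in the set were high in lipid loading. deptor, a subunit that restrains TOR, was at 657, 644 and 589 in p77 and 298, 214 and 220 in p27, and at 2.83 to 87.2 in the other states. ddit4, induced by stress and glucocorticoids, was at 7516 to 8148 (median 7903), and in the other 18 libraries at 426 to 2047 (median 1088).

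**Figure D2:**
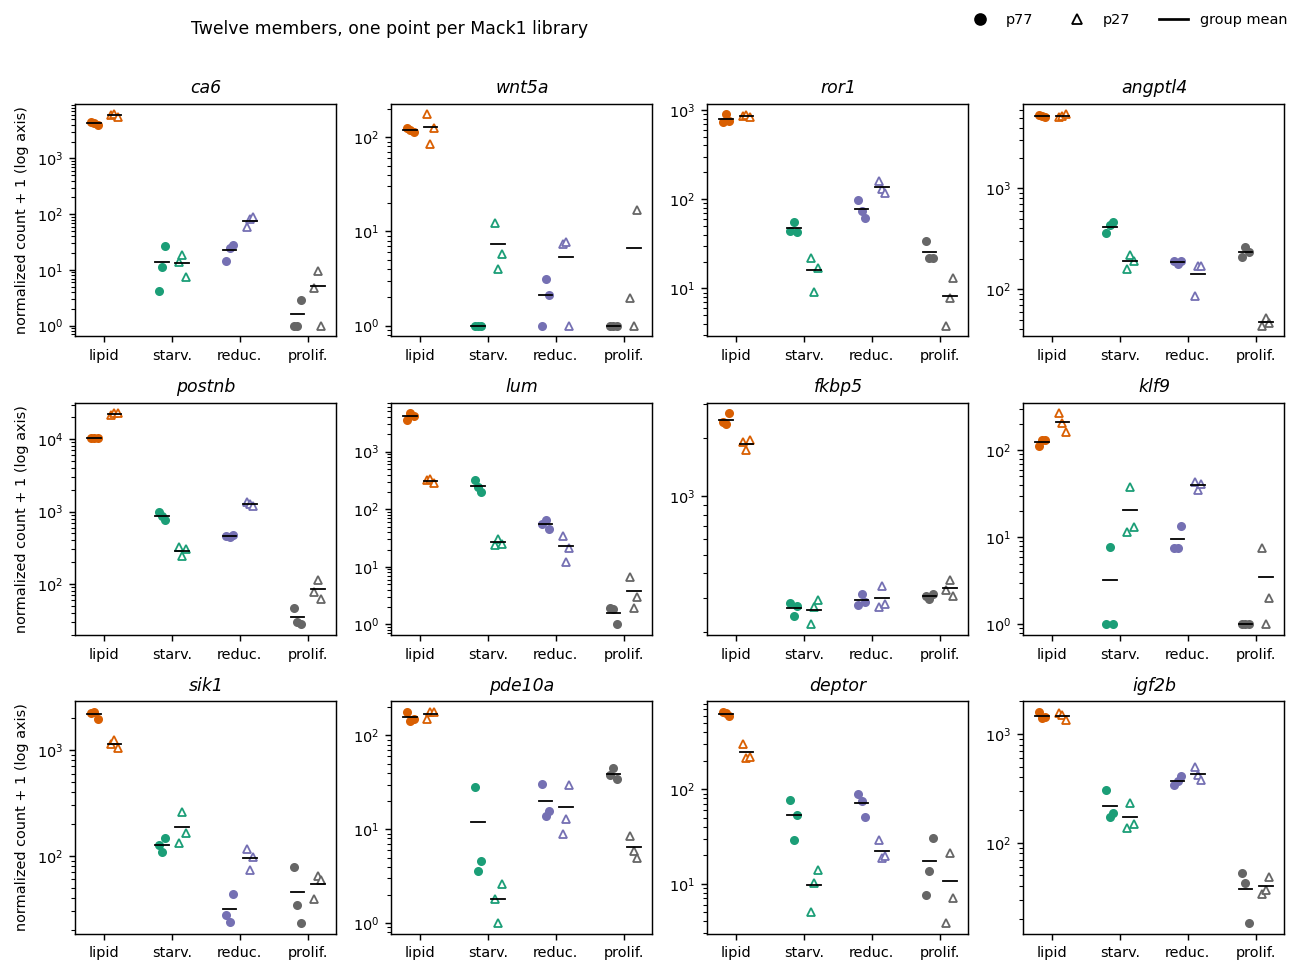
Normalized counts plus 1 (log axis) of 12 of the genes in each Mack1 library, by state from lipid loading to proliferation, with filled circles for p77, open triangles for p27 and a bar for the mean of each group of 3. Lipid loading is the highest group in each panel, and lum also separates p77 (3586 to 4672) from p27 (281 to 332) within lipid loading.

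Among 7 ligands and secreted factors, the Wnt ligand wnt5a had 124, 118 and 111 normalized counts in p77 and 174, 84.1 and 125 in p27 lipid loading. It had none in any p77 starved or proliferating library and at most 16.0 in the other Mack1 groups outside lipid loading. Its receptor ror1 was at 731, 890 and 757 in p77 and 854, 882 and 827 in p27 lipid loading, against 2.83 to 161 elsewhere. ror1 also rose in reduction over proliferation, by 1.62 ± 0.27 at p77 (adjusted p = 5.4e-06) and 4.18 ± 0.32 at p27 (adjusted p = 5.39e-12).

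angptl4, a secreted inhibitor of lipoprotein lipase and a target of both fatty acids and glucocorticoids in mammals, was among the most even genes between stages. It was at 5346, 5280 and 5099 in p77 and 5112, 5184 and 5424 in p27 lipid loading, against 42.5 to 464 in the other libraries (median 189). igf2b, a growth factor of muscle and many other tissues, was at 1602, 1411 and 1424 in p77 and 1568, 1514 and 1341 in p27 lipid loading. It was next highest in reduction, where it exceeded proliferation by 3.31 ± 0.26 at p77 (adjusted p = 6.62e-12) and 3.44 ± 0.26 at p27 (adjusted p = 3.89e-12).

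The vessel ligand angpt4 was at 294 to 489 in lipid loading and 0 to 36.2 elsewhere. The cytokines tnfsf11, known as RANKL, and tnfb, a tumour necrosis factor, were at 290 to 1189 and 126 to 291 in lipid loading. In the other libraries they were at 13.7 to 121 and 0 to 45.5. The pentraxin ptx3a, a secreted protein of innate immunity, was at 2865 to 10956 in lipid loading and 115 to 1042 elsewhere.

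Of 8 surface genes, s1pr3a, a receptor for sphingosine 1-phosphate, was at 94.2 to 144 in lipid loading and 0 to 28.0 in the other Mack1 libraries. The proliferating Mack2 p2 libraries held more of s1pr3a, at 193, 184, 177 and 176. tmem100a was at 1547, 1521 and 1855 in p77 and 723, 639 and 534 in p27 lipid loading, against 3.78 to 83.1 elsewhere. robo1, a receptor for Slit guidance cues, was at 422, 422 and 317 in p77 and 1665, 1554 and 1613 in p27 lipid loading, and at most 287 in the other states. The gap junction gene gja1b (connexin 43) and the receptor phosphatase ptpro were also in this group. In all 8 genes no Mack1 library of another state reached the lowest lipid loading library.

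The extracellular matrix gave the largest role group, with 13 structural genes. postnb, the periostin gene, was at 10270.4, 10301 and 10231 in p77 and 21572, 22692 and 22821 in p27 lipid loading, against 26.7 to 1335 in the other libraries (median 384). tgfbi, an adhesive matrix protein, was at 175786 to 327357, against 7259 to 44146, and fn1a, fibronectin, at 43207 to 98990.4, against 1196 to 19349.9. The fibrillar collagen gene col5a1 was at 131980 to 206712, against 19953 to 65719. The fibroblast marker sums above were likewise higher in lipid loading and reduction than in proliferation, and at p77 in starvation. They are mostly collagen RNA, with col1a2, col1a1a and col1a1b at 313173, 224055 and 100316 in p27 lipid loading. dcn followed the sums, and thy1 was at or near 0. The member lum departed from them in starvation. It averaged 253 in starvation and 54.6 in reduction at p77, and 25.6 in starvation and 2.88 in proliferation at p27. pdgfra averaged 2443, 304 and 1641 in lipid loading, reduction and proliferation at p77, and 346, 19.1 and 399.5 at p27.

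A pair of small leucine-rich proteoglycan genes stood apart. optc, opticin, known from the vitreous of the mammalian eye, was at 343, 403 and 278 in p77 and 562, 630 and 597 in p27 lipid loading, against 0 to 28.5 in the other libraries. lum, lumican, which spaces collagen fibrils, was at 3586, 4672 and 4243 in p77 and 321, 332 and 281 in p27 lipid loading. The p77 starved libraries held 318, 245 and 197, so the lowest p27 lipid loading library lay below the highest of them. stm, starmaker, known in zebrafish from otoliths, was at 713 to 914 in lipid loading and 0.80 to 57.2 elsewhere. col7a1, the anchoring fibril collagen, was at 318, 266 and 139 in p77 and 1000, 820 and 846 in p27 lipid loading, against 150, 118 and 129 in p27 reduction, which overlap the lowest p77 value.

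The genes that process matrix and secreted proteins covered several steps. pcolcea, an enhancer of procollagen trimming, was at 73987, 66452 and 67456 in p77 and 46442, 47906 and 49305 in p27 lipid loading, against 5520 to 20212 elsewhere. Its next highest state was proliferation at both stages, unlike most matrix genes. The secreted proteases adamts6 and mmp23bb were at 374 to 723 and 358 to 775 in lipid loading, against 0 to 26.9 and 14.5 to 122 in the other libraries. colgalt2b, a collagen galactosyltransferase, had no count in any of the 6 proliferating Mack1 libraries and was at 83.2 to 176 in lipid loading. The collagen chaperone fkbp10a was at 564 to 708, the cysteine protease inhibitor cst3 at 15859 to 20325 and the glucocorticoid target crispld2 at 4559 to 6806, each above all other libraries.

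In metabolism, ca6, a carbonic anhydrase secreted in mammals, came second in the whole ranking. It was at 4499.8, 4321 and 4005 in p77 and 6111, 6175 and 5598 in p27 lipid loading, against 0 to 87.9 in the other 18 libraries (median 11.5). The lipid genes of this group ranked lower than ca6, while angptl4, placed with the ligands, stood at rank 14. The lipid droplet enzyme pnpla3 was at 289, 341 and 316 in p77 and 366, 309 and 268 in p27 lipid loading, against 11.4 to 65.0 elsewhere. The cholesterol exporter abca1b was at 333 to 551, against 10.0 to 109, and the sterol reductase tm7sf2 at 528 to 820, against 21.0 to 191. acss3, a mitochondrial acyl-CoA synthetase, was at 235 to 522, against 1.68 to 115, and the glycine cleavage enzyme gldc at 115 to 454, against 1.13 to 75.6. In proliferating Mack2, gldc was at 1372, 1182, 1338 and 1250 in p2 and 334, 280, 263 and 284.5 in p180. gfpt2, which feeds the hexosamine pathway, was at 286 to 650, against 11.3 to 95.3.

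The transcription factors were creb3l1, an endoplasmic reticulum factor that acts on collagen genes in mammals, sox4a, klf13 and znf710a. creb3l1 was at 268, 273 and 287 in p77 and 209, 212 and 246 in p27 lipid loading, against 0 to 42.9 elsewhere. sox4a was at 741, 839 and 789 in p77 and 2030.1, 1742 and 1638 in p27 lipid loading, against 13.1 to 512 in the other libraries. Among 10 cytoskeletal and muscle genes, pacsin3, which bends membranes in muscle, was at 240 to 564, against 0 to 32.5. tnnt1, slow troponin T, was at 137 to 233, against 0 to 69.0, with no count in the proliferating Mack1 libraries. In proliferating Mack2, tnnt1 was at 469, 465, 449 and 449 in p2 and 110, 113, 113 and 113 in p180. The filamin partner fblim1 was at 10244 to 15716, against 1069.5 to 3767.

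The gene at the top of the ranking and many abundant ones have no assigned role, and the gene table gives the locus numbers no description. si:ch211-39i22.1 was at 1191 to 1891 in lipid loading and 0 to 14.2 elsewhere. stk35, a protein kinase, was at 573 to 1031 in lipid loading (median 888), against 8.0 to 52.6. LOC133984496 was at 11595 to 18868, against 52.9 to 620, and LOC133983918 at 13965 to 45590, against 24.3 to 2407. The first 25 of the ranking held 6 further locus numbers. LOC133998093 was at 119 to 385 in lipid loading and had no count in most other libraries (0 to 8.21, median 0). LOC133991452 was at 222 to 401, against 0 to 19.8, LOC133991968 at 141 to 268, against 1.58 to 24.5, and LOC133984435 at 83.0 to 154, against 0 to 25.3. LOC133980297 was at 2877 to 5503, against 0 to 455, and LOC133982199 at 472 to 1556, against 17.0 to 139. In each of these genes the lowest lipid loading library lay well above the highest of the other 18, which follows from the rule. Pairs of these genes that lie within 100 kb of each other in the RefSeq annotation are postnb and frem2b on chromosome 5 with 1 counted gene between them, LOC133979655 and LOC133978920 on chromosome 4 with none, and nt5dc2 and LOC133988326 on chromosome 10 with 4.

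Starvation and reduction were then set against proliferation, using counts in edgeR's quasi-likelihood test with Benjamini-Hochberg adjustment over all genes of each contrast, and calls at an adjusted p under 0.05. The means of these states entered the rule as comparators, so the counts describe where the genes stand among the lower states. In reduction over proliferation 53 genes rose and 13 fell at p77, against 36.8 and 31.9% of all genes. At p27 65 rose and 5 fell, against 32.4 and 29.3%. In starvation over proliferation 55 rose and 17 fell at p77, against 35.5 and 31.5%, and 41 rose and 24 fell at p27, against 34.3 and 30.0%. The lower count in p77 starvation was 9 when only the groups compared were fitted, and that in p27 reduction was 3 with DESeq2, with limma-trend or without p27 reduction replicate 1. The median log2 changes of the 100 were 1.03 and 1.23 for reduction and 1.1 and 0.54 for starvation at p77 and p27, with medians over all genes of 0.05 to 0.09. Of the 13 structural matrix genes, all rose in reduction at p27, while at p77 7 rose and 2 fell. In starvation 7 of them rose and 2 fell at p77, and 3 rose and 6 fell at p27.

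LOC133983918, which rose with the smallest p-value of the 100 genes in all 4 of these contrasts, was at 2099 ± 127 in p77 reduction and 1649 ± 99.0 in p77 starvation, against 31.7 ± 6.98 in p77 proliferation (SD, n = 3 each). Its log2 changes were 6.02 ± 0.18 (adjusted p = 1.13e-20) and 5.68 ± 0.18 (adjusted p = 4.53e-20). At p27 they were 4.62 ± 0.16 for reduction and 4.11 ± 0.16 for starvation (adjusted p = 4.22e-19 and 3.35e-18). postnb rose by 3.76 ± 0.17 in p77 reduction (adjusted p = 7.09e-17), 4.68 ± 0.17 in p77 starvation (4.19e-19), 3.88 ± 0.15 in p27 reduction (2.57e-18) and 1.78 ± 0.15 in p27 starvation (7.18e-11). lum held 318, 245 and 197 in p77 starvation, against 0.94, 0.84 and 0 in p77 proliferation (adjusted p = 8.99e-16). LOC133997599 rose in p77 starvation by 2.05 ± 0.11 (adjusted p = 2.26e-15). In p77 reduction si:ch211-221n20.8 rose by 4.28 ± 0.22 (1.23e-15) and ddit4 by 2.02 ± 0.11 (1.86e-15). In p27, LOC134006547 rose in reduction by 3.86 ± 0.23 (2.86e-14) and in starvation by 3.36 ± 0.23 (6.25e-13), pdlim4 in reduction by 2.08 ± 0.13 (1.65e-13) and sox4a in starvation by 2.55 ± 0.19 (2.91e-12).

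A smaller set fell in reduction or starvation, although lipid loading was their highest state. fblim1 was at 1405 ± 64.7 in p77 reduction and 1210 ± 138 in p77 starvation, against 3170 ± 81.6 in p77 proliferation (SD, n = 3 each). Its log2 changes were -1.19 ± 0.09 and -1.41 ± 0.09 at p77 and -0.78 ± 0.09 and -1.70 ± 0.09 at p27, with adjusted p-values of 1.54e-12, 5.85e-14, 6.53e-09 and 1.26e-15. LOC133979655 fell in the same 4 contrasts, by 1.97 ± 0.14 in p77 reduction (adjusted p = 6.11e-13), 1.76 ± 0.13 in p77 starvation (5.73e-12), 0.89 ± 0.13 in p27 reduction (1.2e-06) and 2.10 ± 0.14 in p27 starvation (2.32e-13). In p77, gja1b fell by 1.81 ± 0.22 in reduction (3.76e-08), ppp1r3c2a, a glycogen-targeting phosphatase subunit, by 3.34 ± 0.44 in starvation (1.85e-07) and LOC134002367 by 1.15 ± 0.12 in starvation (3.16e-09). In p27, LOC134002367 fell by 3.02 ± 0.13 (1.34e-17) in starvation and pcolcea by 0.50 ± 0.09 in reduction (4.49e-05), while tgfbi changed by -1.66 ± 0.12 in starvation (2.37e-12). LOC133984496 fell by 2.79 ± 0.28 in p77 reduction (9.31e-10) and by 0.65 ± 0.23 in p27 reduction (0.0179), the second losing its call without p27 reduction replicate 1 (0.0525) or 3 (0.0567).

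The stages were compared next. Within lipid loading, 17 genes were higher and 31 lower at p77 than at p27, against 18.6 and 15.7% of all genes, and 76 of the 100 differed less than 2-fold in their means. Here and in the other comparisons, all genes include those below the mean of 100 in lipid loading that the members had to reach. The lower count is 20 without p77 lipid loading replicate 3 and 17 with limma-trend. The median log2 difference of the 100 was -0.19, and that of all genes 0.02. Of the 13 structural matrix genes 9 were lower at p77 and only lum was higher, while of the 8 signalling genes 3 were higher and none lower.

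lum averaged 4167 ± 547 in p77 and 311 ± 26.5 in p27 lipid loading (SD, n = 3 each), a log2 difference of 3.74 ± 0.18 (adjusted p = 1.32e-14). arl4ab, a small GTPase, averaged 1179 ± 61.1 and 238 ± 16.3, a difference of 2.30 ± 0.18 (1.21e-10). LOC133983918 was higher by 1.59 ± 0.13 (1.3e-10) and LOC133997599 by 0.66 ± 0.10 (1.05e-05). tmem100a was higher by 1.37 ± 0.24 (3.85e-05), deptor by 1.36 ± 0.34 (0.00221), sik1 by 0.93 ± 0.23 (0.00197) and fkbp5 by 0.41 ± 0.10 (0.00267). Among the genes that were lower at p77, LOC134002367 averaged 8994 ± 1083 in p77 and 43904 ± 2203 in p27, a difference of -2.29 ± 0.12 (4.5e-14). ptx3a differed by -1.63 ± 0.14 (5.42e-10), gja1b by -1.55 ± 0.16 (8.53e-09), pdlim4 by -1.19 ± 0.12 (8.02e-09) and robo1 by -2.06 ± 0.21 (1.42e-08). postnb differed by -1.13 ± 0.12 (1.1e-08), fn1a by -0.93 ± 0.13 (2.52e-06), tgfbi by -0.79 ± 0.12 (5.11e-06), tnfsf11 by -1.42 ± 0.27 (0.000142) and col7a1 by -1.89 ± 0.38 (0.00027, but 0.0609 with limma-trend). In each gene of this paragraph the 3 p77 libraries did not overlap the 3 p27 libraries. The same held for 74 of the 100 members, and the share over all genes was not counted.

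**Figure D3:**
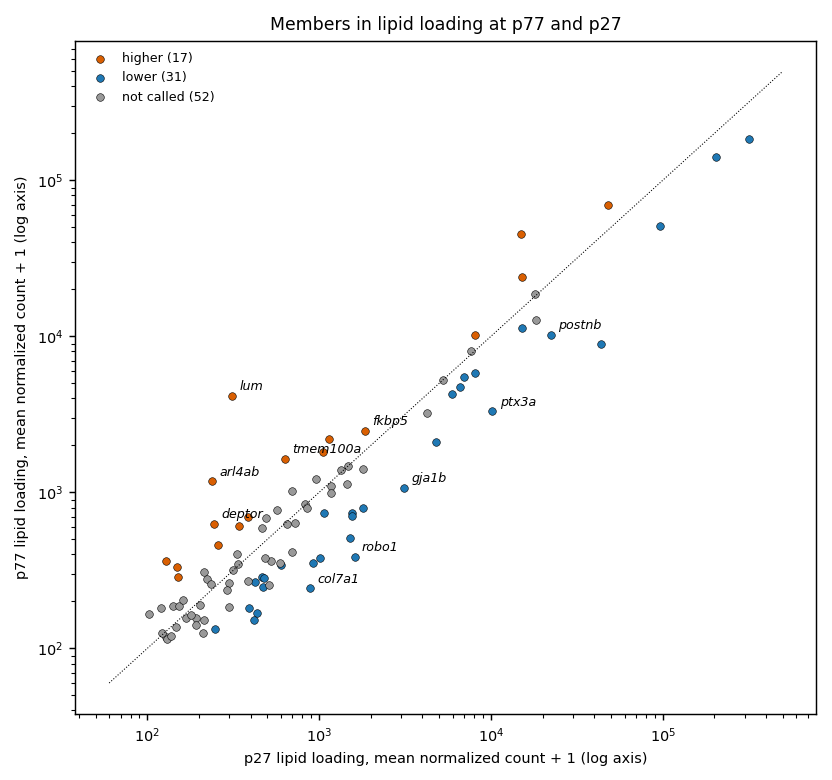
Mean normalized count plus 1 of the 100 genes in lipid loading at p77 (vertical, log axis) against p27 (horizontal, log axis), coloured by the call, with a dotted line where both are equal. Most points lie near the line, 17 are called higher at p77 and 31 lower, and lum and arl4ab stand farthest above it.

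Outside lipid loading the stage differences of the same genes were of similar number. In reduction 9 were higher and 44 lower at p77 (background 14.7 and 16.1%, medians -0.73 over the 100 and 0.02 over all genes). In starvation 26 were higher and 20 lower (11.1 and 10.2%, medians 0.09 and -0.01), which became 17 and 8 when only the groups compared were fitted, and in proliferation 18 were higher and 35 lower (10.5 and 15.1%, medians -0.71 and -0.02). arl4ab, pcolcea and LOC133997599 were higher at p77 in all 4 states, and crispld2, klf13, ptx3a, rhobtb4, sox4a and LOC134002235 were lower in all 4. The shares of all genes called in 1 direction in all 4 states were not counted, so these genes have no background to be set against. pcolcea differed by 1.12 ± 0.09 in reduction (adjusted p = 4.88e-10), 1.23 ± 0.09 in starvation (2.19e-10) and 1.14 ± 0.09 in proliferation (3.3e-10), and arl4ab by 2.45 ± 0.24 in reduction (7.06e-09) and 2.70 ± 0.24 in proliferation (1.63e-09). crispld2 differed by -1.65 ± 0.10 in reduction (8.83e-13) and -1.63 ± 0.10 in starvation (3.49e-12), and ptx3a by -2.23 ± 0.17 in reduction (6.02e-11), -1.29 ± 0.15 in starvation (3.09e-07) and -1.62 ± 0.16 in proliferation (9.8e-09). LOC133997599 differed by 2.22 ± 0.11 in starvation (3.78e-14) and 0.80 ± 0.10 in reduction (1.05e-06).

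The stage differences of single genes were not the same in every state. angptl4 did not pass in lipid loading (-0.00 ± 0.13, adjusted p = 0.988), while proliferating cultures held 208, 264 and 234 at p77 and 42.5, 50.2 and 45.0 at p27 (2.34 ± 0.20, adjusted p = 5.52e-10). fn1a was at 1267 ± 74.6 in p77 and 8841 ± 1341 in p27 proliferation (-2.82 ± 0.14, adjusted p = 2.29e-14), and lamb1a, a laminin chain, at 425 ± 42.8 and 1203 ± 55.1 (-1.52 ± 0.10, adjusted p = 3.17e-12). hmcn1 was higher at p77 in proliferation by 1.87 ± 0.26 (3.81e-06). gja1b was at 42.5 ± 1.33 in p77 and 406 ± 78.4 in p27 reduction (-3.24 ± 0.21, adjusted p = 2.47e-12). tgfbi was higher at p77 in starvation by 1.93 ± 0.12 (4.93e-12) and lum by 3.27 ± 0.23 (4.88e-11), while lamb1a and LOC133982199 were lower by 0.84 ± 0.10 (3.82e-07) and 1.40 ± 0.22 (2.82e-05). si:ch211-221n20.8 was higher at p77 in reduction by 1.61 ± 0.17 (2.42e-08). LOC134002367 was lower at p77 by 2.21 ± 0.12 in reduction (1.27e-13) and by 1.84 ± 0.12 in proliferation (3.05e-12) (SD, n = 3 each, for means).

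The change from proliferation to each serum state was also tested for a difference between stages. For starvation the change was more positive at p77 in 22 genes and more negative in 9, against 8.7 and 4.89% of all genes. For reduction the counts were 13 and 18, against 11.5 and 11.1%. fn1a gave the clearest difference. It was at 7762, 4985 and 4659 in p77 starved libraries, against 1345, 1259 and 1196 in p77 proliferating ones, a change of 2.17 ± 0.14. At p27 it was at 3469, 3236 and 3516, against 8370, 10354 and 7799.9, a change of -1.38 ± 0.13, and the changes differed by 3.55 ± 0.19 (adjusted p = 3.97e-13). tgfbi changed in starvation by 1.04 ± 0.12 at p77 and by -1.66 ± 0.12 at p27, a difference of 2.70 ± 0.17 (adjusted p = 7.52e-12). postnb rose at both stages, by 4.68 ± 0.17 and 1.78 ± 0.15 (difference 2.90 ± 0.24, adjusted p = 8.12e-10). In the other direction, tm7sf2 rose by 0.62 ± 0.22 at p77 and 2.70 ± 0.24 at p27 (difference -2.09 ± 0.33, adjusted p = 5.33e-05). LOC133982199 fell by 0.65 ± 0.23 at p77 and rose by 1.92 ± 0.23 at p27 (difference -2.58 ± 0.33, adjusted p = 2.18e-06), and the nucleotidase relative nt5dc2 differed by -1.40 ± 0.29 (0.0012).

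In reduction si:ch211-221n20.8, which has no known role, rose by 4.28 ± 0.22 at p77 and 0.66 ± 0.19 at p27 (difference 3.62 ± 0.31, adjusted p = 1.24e-09), and in starvation its difference was 3.79 ± 0.31 (8.12e-10). The matrix genes lamb1a and fn1a rose more at p77 in reduction, by differences of 1.55 ± 0.14 (2.12e-09) and 1.71 ± 0.19 (1.24e-07), as did ddit4, by 0.94 ± 0.15 (2.09e-05). gja1b fell at p77 and rose at p27 (difference -2.45 ± 0.28, adjusted p = 1.59e-07), and so did hmcn1 (-2.90 ± 0.37, 1.46e-06) and LOC133982199 (-3.36 ± 0.33, 1.99e-08). angptl4 differed between stages in reduction by -1.93 ± 0.26 (3.44e-06) and in starvation by -1.22 ± 0.26 (0.00154). p77 starvation replicate 1 lay farthest from its fellows over the 100 genes, with a median absolute log2 deviation of 0.67 against 0.11 to 0.44 in the other libraries, and without it the starvation counts are 25 and 9.

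Mack2 took no part in the choice of the genes and had no lipid loading group. In proliferating Mack2, 70 of the 100 genes were lower at p180 than at p2 and 7 were higher, against 39.1 and 38.6% of the 13805 genes tested. Another 5 were tested and not called, and 18 were too low for the test. A member that is present at p2 alone enters the test only because of p2, so the counts are also given for genes present at p180. Of the 49 tested genes with a p180 mean of at least 10, 37 were lower and 7 higher. The share over all genes with such a p180 mean was not counted, so this subset has no background to be set against. Without p2 replicate 4, the only Mack2 library labelled batch 1, 69 were lower and 7 higher. Fibroblast markers summed to 124629 to 131717 at p180 and 419275 to 469893 at p2, smooth muscle markers to 65333 to 69947 and 253750 to 276617, and differentiated muscle markers to 97503 to 137761 and 325152 to 398833. Their part in these differences was not tested.

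The 4 genes that fell with the smallest p-values in Mack2 were matrix, guidance and growth factor genes. lamb1a was at 463, 369, 397 and 389 in p180, against 8845, 9273, 9371 and 9629.9 in p2 (-4.46 ± 0.06, adjusted p = 7.26e-18). tgfbi was at 2736, 2288, 2539 and 2354 in p180, against 45637, 43263, 46300 and 47237 in p2 (-4.14 ± 0.06, adjusted p = 8.11e-18). robo1 was at 132, 118, 145 and 117 in p180 and 2953, 3141, 3221 and 3125 in p2 (-4.54 ± 0.06, adjusted p = 1.36e-17), and igf2b at 54.6, 58.4, 62.2 and 65.4 in p180 and 1458, 1397, 1373 and 1426 in p2 (-4.48 ± 0.07, adjusted p = 3.39e-17). In none of these 4 genes did the groups overlap. The same held for 74 of the 82 members tested, and the share over all genes was not counted.

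Several members were nearly silent at p180. crispld2 was at 5.07, 4.97, 0 and 3.68 in p180, against 1777, 1629, 1803 and 1748 in p2 (-8.86 ± 0.15, adjusted p = 8.36e-17). postnb had 1 raw count in all p180 libraries together and 1212 in the p2 libraries (adjusted p = 5.29e-15). sik1 was at 17.8, 4.97, 4.88 and 4.6 in p180 and 868, 654, 596 and 627 in p2 (-6.39 ± 0.24, adjusted p = 1.18e-12). angptl4 was at 1.27, 2.49, 3.66 and 3.68 in p180 and 23.5, 35.4, 33.8 and 32.1 in p2 (-3.30 ± 0.35, adjusted p = 4.25e-07). With no count in any p180 library, and taking 3 counts over the group as the floor, LOC133983918 was at least 240-fold lower, gpx7 at least 122.6-fold, creb3l1 at least 75.1-fold, mt2 at least 54.2-fold, angpt4 at least 36.5-fold and frem2b at least 35.8-fold. LOC134002367 was at 138 ± 56.3 in p180 and 41323 ± 2943 in p2 (SD, n = 4 each). All 12 structural matrix genes that could be tested were lower, against 39.1% of all genes tested. Those near 0 at p180, such as postnb, lum and optc, entered the test only because of p2 and could only be called lower.

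The 7 genes that were higher at p180 were smtnl, ptpro, ccdc85b, LOC133998009, LOC133990420, fkbp5 and tm7sf2. smtnl, related to smooth muscle smoothelin, was at 707, 815, 761 and 771 in p180, against 211, 148, 209 and 158 in p2 (2.13 ± 0.10, adjusted p = 1.17e-11). ptpro was at 91.3, 83.3, 107 and 89.3 in p180 and 38.8, 11.3, 14.5 and 11.2 in p2 (2.26 ± 0.28, adjusted p = 2.13e-06). ccdc85b was higher by 1.93 ± 0.28 (1.12e-05), LOC133998009 by 1.49 ± 0.17 (7.63e-07) and LOC133990420 by 1.35 ± 0.26 (0.00021). fkbp5, at 625, 614, 555 and 486 in p180 and 443, 494, 452 and 417 in p2, was higher by 0.40 ± 0.08 (0.000441), and the groups overlapped. tm7sf2 was higher by 0.64 ± 0.22 (0.0162), also with overlap, and loses its call without p2 replicate 1 (0.0546). wnt5a was tested and did not pass (-0.07 ± 0.22, adjusted p = 0.787).

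**Figure D4:**
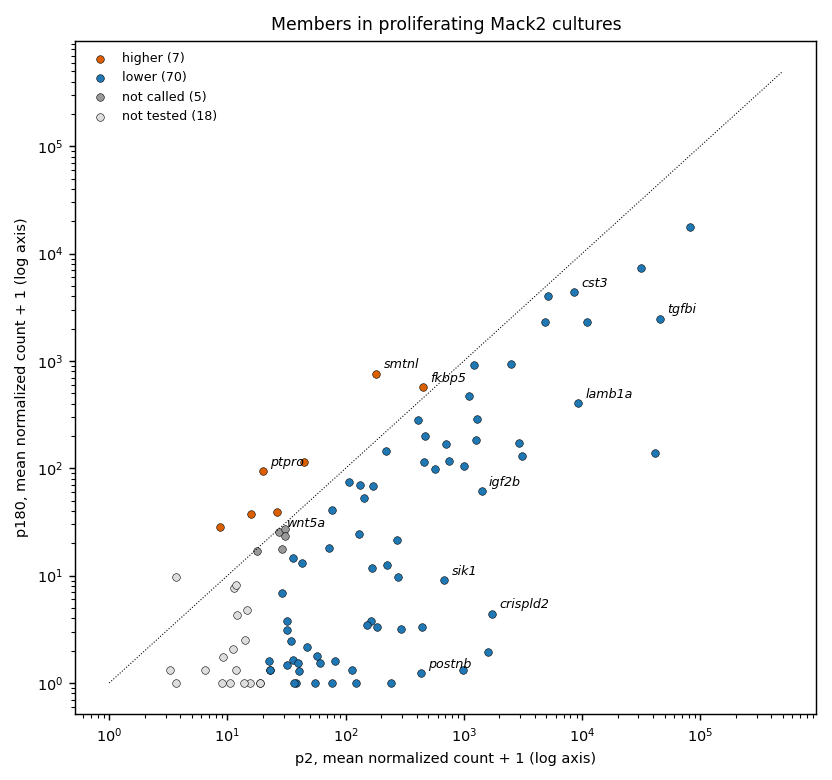
Mean normalized count plus 1 of the 100 genes in proliferating Mack2 at p180 (vertical, log axis) against p2 (horizontal, log axis), coloured by the call, with a dotted line where both are equal. The 70 genes called lower lie below the line over the whole range of levels, several of them at 0 counts in p180, and smtnl and ptpro lie above it.

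Other genes were read from 12 lists of pathways and gene functions, with the 100 members left out. A gene was counted where it passed in all 6 contrasts of lipid loading over the other states in 1 direction, as 6.38% of genes did upward and 5.46% downward. The members are the strongest genes of the same contrasts, so the remaining counts are low by construction. The median of the mean log2 change was 0.07 over all genes.

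In the glucocorticoid list 7 of 24 other genes were higher (4 when only genes with a mean of at least 1 CPM are tested) and 1 lower (median 0.54), beside its 6 members angptl4, crispld2, ddit4, fkbp5, klf9 and mt2. tsc22d3, the leucine zipper gene GILZ and a direct hormone target, averaged 1533 ± 33.2 in p77 lipid loading, against 172 ± 30.2 in starvation, 202 ± 27.2 in reduction and 557 ± 94.5 in proliferation (SD, n = 3 each; largest of the 6 adjusted p-values 3.13e-10). nfkbiaa, sgk1 and hsd11b2, which encode an NF-κB inhibitor, a kinase and a cortisol-inactivating enzyme, were also higher. tat, tyrosine aminotransferase, a hormone-induced gene of mammalian liver, was lower, at 159 ± 14.4 in p77 lipid loading (largest adjusted p = 1.38e-14). At the same stage it averaged 844 in starvation, 1474 in reduction and 11944 in proliferation (means of 3). In the cyclic AMP list 2 of 22 were higher and 1 lower (median 0.13), shares close to those of all genes. crema, an inducible repressor of the pathway, averaged 2746 ± 149.8 in p77 lipid loading (largest adjusted p = 1.31e-05). At p77 it averaged 370 in starvation, 214 in reduction and 187 in proliferation, and its smallest difference was 1.06, over p27 starvation. pde4ba was higher by 1.47 to 2.89, and fosb was lower by 2.00 to 4.38.

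Lipid genes differed by branch. In sterol synthesis and uptake 11 of 23 other genes were higher and 1 lower (median 1.03). acat2 was higher by 1.29 to 1.91 (largest adjusted p = 4.81e-13), msmo1 by 1.6 to 2.32 (1.05e-11), dhcr7 by 0.82 to 1.90 (1.06e-08) and sqlea by 1.13 to 5.07 (5.81e-06), while the lipogenic regulator srebf1 was lower by 0.69 to 2.22 (1.1e-07). In fatty acid oxidation 4 of 29 were higher and none lower (median 0.35), with cpt1ab at 0.57 to 1.19 (1.48e-06), acadm at 0.35 to 0.93, decr1 at 0.44 to 1.09 and cpt1b at 0.83 to 7.02. In fat storage 2 of 29 were higher and 1 lower (median 0.21), a share close to that of all genes. The lipoprotein lipase gene lpla averaged 28209 ± 1414 in p77 and 33397 ± 1502 in p27 lipid loading (largest adjusted p = 6.46e-12). At p77 and p27 it averaged 9973.5 and 10698 in reduction, 6502 and 5875 in starvation, and 5089 and 430 in proliferation. pnpla2, the fat cell triglyceride lipase, averaged only 73.9 ± 23.6 and 25.1 ± 15.9 in p77 and p27 lipid loading (0.0143), and fitm2 was lower (0.0475), a call lost with DESeq2 and limma-trend. lpla was also the only one of 12 lipoprotein genes to pass (median 0.44), again a share close to that of all genes.

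In the matrix list 8 of 57 other genes were higher and none lower (median 1.06), among them aspn by 1.32 to 7.23 (largest adjusted p = 3.01e-07), cilp by 1.22 to 9.41 (1.45e-06) and the collagen cross-linking genes loxl2a by 0.48 to 1.88 and loxl2b by 0.84 to 5.04. Of 27 matrix proteases and inhibitors 7 were higher and 2 lower (median 1.33). htra3b was higher by 1.67 to 2.95 (1.5e-11), adamts15a by 0.88 to 5.16, mmp2 by 0.70 to 3.04 and adamts3 by 1.38 to 3.07, while mmp19 was lower by 0.81 to 1.42 and timp2b by 0.28 to 1.99. In steroid and xenobiotic metabolism 3 of 11 were higher and 2 lower (median 0.99), with dhrs3b, a retinal reductase, higher by 1.36 to 6.17 and ahrra, the repressor of the aryl hydrocarbon receptor, lower by 0.82 to 4.67. Of 9 complement and acute phase genes 2 were higher, hpxb and hamp, with means of 188 ± 12.3 and 12.3 ± 5.33 in p77 lipid loading and under 8 in the other states. The fitted median of that list, 4.39, rests on groups at or near 0 and gives no size of change. In insulin and IGF signalling 1 of 18 was higher, foxo3a, at 21.8 ± 15 in p77 lipid loading (median 0.41). Among 27 BMP and Wnt modulators bambia was higher and dkk3b lower (median 0.55). The shares called in both lists were close to those of all genes. The calls of foxo3a and dkk3b, and 1 of the 2 complement calls and of the 2 lower calls in steroid metabolism, were lost without single libraries.

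**Figure D5:**
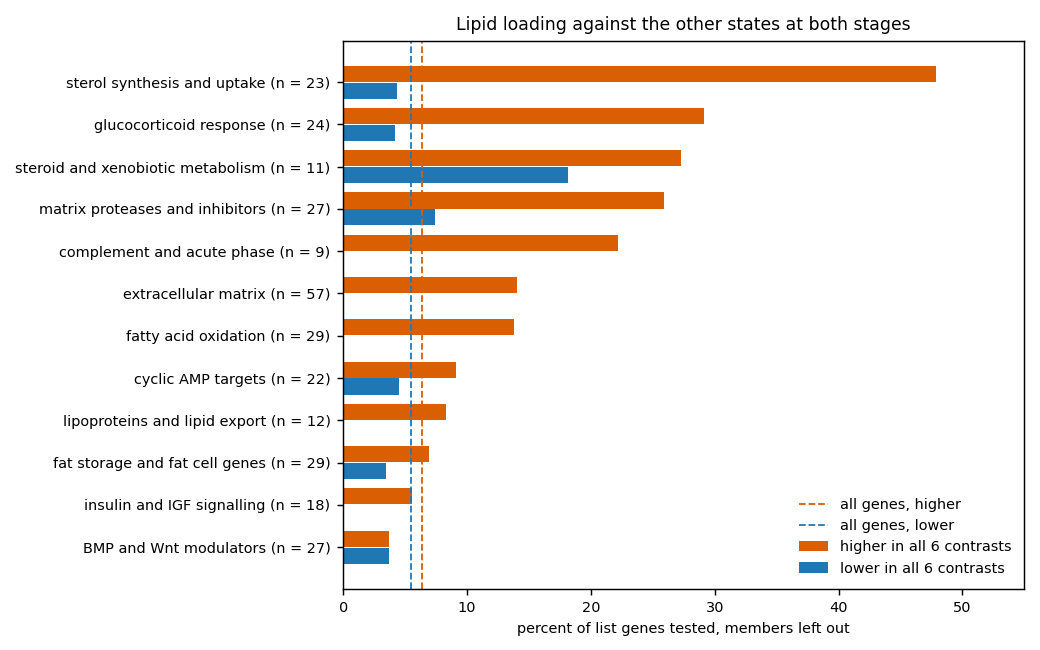
Share of the genes of each of 12 lists, members left out, that passed in all 6 contrasts of lipid loading over the other Mack1 states, in percent of the genes tested (n in brackets), with dashed lines at 6.38% higher and 5.46% lower for all genes. Sterol synthesis has the longest bar with 11 of 23 genes higher, and fat storage, with 2 of 29, ends next to the dashed line.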

How the data were processed

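RNA was measured in 32 poly(A) libraries, not strand-specific, per the labels' protocols. For 24189 genes the authors deposited raw read counts as whole numbers. They also deposited a normalized signal, and its values show that it is the raw count over a single size factor for the library (0.6212 to 1.3431). FastQC, STAR, Salmon 1.10.1 and DESeq2 appear in the submitters' processing notes, with no roles stated. No source used here states the genome build or the handling of shared reads. Symbols, biotypes and neighbours are from RefSeq's table for the assembly fScoSco1.1, and no coordinates or sequences are given. Total counts were 16.9 to 32.01 M per library, and in each of 36 replicate pairs the spread exceeded counting error (chi-square per degree of freedom 3.25 to 84.1). The values of 84.1 and 80.6 came from the pairs with p77 starvation replicate 1, and the highest value of the other pairs was 27.14.

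The counts entered edgeR 4.0.16 (R 4.3.3) after its filterByExpr and TMM steps, with glmQLFit, two-sided glmQLFTest, Benjamini-Hochberg adjustment over all genes of a contrast and a threshold of 0.05. The 24 Mack1 libraries had 1 fit (15683 genes) and the Mack2 libraries another (13805 genes). The procedure was tested on simulated data. Fold changes are on the log2 scale. Alternatives were DESeq2 1.42.0, RLE size factors, a fit without the low-count filter, one on genes with a mean of 1 CPM or more, limma-trend (limma 3.58.1) on log2 of the deposited signal with 1 added, a block for the replicate number, only the groups compared and each library left out. Tests of whether the change from proliferation to a serum state differed between stages were added after the data were seen. For the rule, other pseudocounts, minimum means, group medians and CPM were tried. Plots were drawn with matplotlib 3.10.9.

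The members and the gene lists were chosen with earlier results of these data known. Members are named where they are among the first 25 of the ranking, belong to a pathway list, are among the 4 with the smallest p per direction in a comparison, lie at the edge of the ranking or lie within 100 kb of another member. Other members were named for their role after their values were seen. Of each pathway list, the text draws on the 4 genes a direction with the smallest largest p.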

Additional observations from a re-analysis of the deposited data

Results flagged for a closer look

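In 4 of the named members 1 library stood apart from the other 3 of its Mack2 group. Chance alone raises this flag in about 1 in 20 groups of normally distributed values. Both Mack2 groups of each member named in the Mack2 comparison were checked. ptpro was at 38.8 in p2 replicate 1 and at 11.3, 14.5 and 11.2 in the other p2 libraries, so the gap was 0.879 of the group's range. sik1 was at 17.8 in p180 replicate 1 and at 4.97, 4.88 and 4.6 in the other p180 libraries, a gap of 0.972. ccdc85b in p180 had a gap of 0.834, and postnb in p180 a gap of 1.0, since 1 library held its single count.

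In some members the change from proliferation to a serum state differed between p77 and p27 by the test of the difference itself. In starvation 22 members had a more positive change at p77 and 9 a more negative one, against 8.7 and 4.89% of all genes. In reduction the counts were 13 and 18, against 11.5 and 11.1%, so the first was close to its share.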

How the results depend on the processing

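No result reversed, and 1002 of the 1058 recomputed counts stayed within 1.5 times the reported one. In lipid loading p77 over p27 the lower count of 31 was 17 with limma-trend and 20 to 26 with a library left out (20 without p77 lipid loading replicate 3). In starvation p77 over p27 the counts of 26 and 20 were 17 and 8, and in p77 starvation over proliferation the lower count of 17 was 9, when only the groups compared were fitted. In p27 reduction over proliferation the lower count of 5 was 3 with DESeq2 and with limma-trend, and 3 to 5 with a library left out (3 without p27 reduction replicate 1). For Mack2 the leave-one-out ranges were 69 to 72 lower and 6 to 7 higher. Among the pathway lists, the higher counts for glucocorticoid and fat storage were 4 and 1 with a mean of at least 1 CPM. Those for insulin and IGF and for complement were 0 and 1 with that filter and with none. The lower count for fat storage was 0 with DESeq2, RLE, 1 CPM, limma-trend and the block, and that for steroid metabolism 1 with limma-trend. With a library left out, the range was 1 to 2 higher for fat storage (1 without p27 lipid loading replicate 1 or p27 reduction replicate 3) and 0 to 1 lower for fatty acid oxidation (1 without p77 lipid loading replicate 2 or p77 starvation replicate 1). It was 1 to 2 higher for lipoproteins (2 without p27 starvation replicate 1) and 0 to 1 lower for BMP and Wnt (0 without p27 lipid loading replicate 2 or 3 or p27 starvation replicate 1). It was 1 to 2 higher for complement (1 without p77 lipid loading replicate 1 or p77 proliferation replicate 1 or 3). For insulin and IGF it was 0 to 1 higher (0 without p27 lipid loading replicate 3, p27 reduction replicate 1 or 3, p77 lipid loading replicate 1 or p77 starvation replicate 3). For steroid metabolism it was 1 to 2 lower (1 without p77 lipid loading replicate 1 or 3, p77 reduction replicate 3, p77 proliferation replicate 2 or 3, p27 lipid loading replicate 2, p27 starvation replicate 1 or p27 reduction replicate 1). For fat storage it was 0 to 2 lower, with 2 without p77 starvation replicate 2 or 3, and 0 without p77 starvation replicate 1, p77 reduction replicate 2 or 3, p77 proliferation replicate 1, p27 lipid loading replicate 1 or 2, p27 starvation replicate 2 or 3, p27 reduction replicate 2 or p27 proliferation replicate 1.

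Single calls lost were LOC133984496 in p27 reduction over proliferation (DESeq2 and limma-trend, adjusted p = 0.0869 and 0.11) and col7a1 between stages in lipid loading (limma-trend, 0.0609). The first was also lost without p27 reduction replicate 1 or 3 (0.0525 and 0.0567). pde10a lost its call in p77 starvation over proliferation (only the groups compared, 0.0822) and tm7sf2 in Mack2 (without p2 replicate 1, 0.0546). fkbp5 gained a call in p27 reduction over proliferation (without p27 reduction replicate 2, 0.0207). The rule kept 97 to 100 genes with pseudocounts of 10 and 0.1, 98 with CPM, 97 with medians, 72 and 75 with a minimum mean of 50 and 200, and 96 to 100 with a library left out.

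Replicate numbers did not pair the Mack1 libraries (correlations of same-numbered deviations -0.05 to 0.03 between stages) or the Mack2 libraries (-0.027 to 0.104). With the number as a replicate block the stage counts in lipid loading were 17 higher and 29 lower and in Mack2 7 and 71, and apart from fitm2 in fat storage no count moved by over 1.5 times. Depth limits the members under 10 normalized counts in proliferation, where folds rest on few counts.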
